A study of Mus musculus with 12 samples.

Results

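The proliferation genes of S and M phase were followed in whole ileum of C57BL/6J mice, in 12 RNA-seq libraries. The list holds 40 genes, named by symbol with earlier results of these data known though with no cut on a measured value, out of 54838 genes counted: 19 genes of S phase and DNA replication and 21 genes of G2 and M phase. The 40 symbols each matched 1 row of counts, and all 40 passed the filter on low counts. The mice were purchased females, used at 8 to 14 weeks of age. The labels name no transgene or deletion. They drank normal water or water with 25 mM ZnSO4 for 7 days, were then injected with PBS or with 200 µg dexamethasone (Dex, a synthetic glucocorticoid) in PBS, and were sampled 2 h later. The 4 groups were water + PBS, ZnSO4 + PBS, water + Dex and ZnSO4 + Dex, with 3 mice and 3 libraries each. The design asks what zinc, Dex and both together change in the transcripts of the ileum. Whole tissue was used, so every value mixes epithelium, immune cells and muscle.

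In S phase a cell copies its DNA. Cdc6 and Cdt1 load the Mcm helicase onto replication origins, Gins2 and Cdc45 turn the loaded helicase on, and ribonucleotide reductase, made of Rrm1 and Rrm2, supplies the deoxynucleotides. In mitosis, cyclin B with Cdk1 starts the division, the Aurora and Polo kinases drive it, and spindle proteins such as Nusap1, Tpx2 and the kinesins separate the chromosomes. In the small intestine the dividing cells sit in the crypts, as stem cells and as their transit-amplifying daughters, and B cells of lymphoid follicles divide as well. Genes of S phase are textbook targets of the E2F factors, and many genes of M phase carry a CHR element (cell cycle genes homology region) and CCAAT boxes in their promoters.

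Promoters are shown for 3 genes of each phase, those with the lowest p of a change described below and Mki67 as the usual marker of dividing cells. Each line gives the 250 bases before the start of the gene from RefSeq (GRCm38.p6), read 5′ to 3′ on the strand of the gene. Capitals mark matches to TTTGAA (CHR), CCAAT, or an E2F sequence (TTTGGCGC, TTTCGCGC, TTTGCCGC or TTTCCCGC), searched on both strands.
Cdc6, chr11:98907901-98908150, plus strand: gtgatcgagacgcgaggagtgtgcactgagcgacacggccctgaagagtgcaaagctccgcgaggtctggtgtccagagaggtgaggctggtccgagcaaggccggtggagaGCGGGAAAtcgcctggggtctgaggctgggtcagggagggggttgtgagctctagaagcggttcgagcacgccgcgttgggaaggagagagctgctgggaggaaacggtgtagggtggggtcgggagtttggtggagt
Mcm2, chr6:88898781-88899030, minus strand: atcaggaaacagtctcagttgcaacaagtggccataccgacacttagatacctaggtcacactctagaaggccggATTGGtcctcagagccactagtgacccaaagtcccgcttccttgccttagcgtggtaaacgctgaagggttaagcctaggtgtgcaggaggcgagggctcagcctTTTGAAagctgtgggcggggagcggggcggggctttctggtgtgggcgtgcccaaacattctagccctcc
Rrm2, chr12:24708004-24708253, plus strand: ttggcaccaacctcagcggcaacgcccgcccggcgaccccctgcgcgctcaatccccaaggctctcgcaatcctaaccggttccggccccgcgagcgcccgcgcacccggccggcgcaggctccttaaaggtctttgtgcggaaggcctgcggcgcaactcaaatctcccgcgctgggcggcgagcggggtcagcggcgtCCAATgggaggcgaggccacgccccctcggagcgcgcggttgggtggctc
Nusap1, chr2:119618048-119618297, plus strand: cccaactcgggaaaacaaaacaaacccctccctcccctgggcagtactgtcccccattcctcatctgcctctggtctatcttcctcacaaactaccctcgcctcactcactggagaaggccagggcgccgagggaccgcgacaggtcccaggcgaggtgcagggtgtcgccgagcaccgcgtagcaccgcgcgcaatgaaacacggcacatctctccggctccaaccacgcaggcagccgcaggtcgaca
Top2a, chr11:99024190-99024439, minus strand: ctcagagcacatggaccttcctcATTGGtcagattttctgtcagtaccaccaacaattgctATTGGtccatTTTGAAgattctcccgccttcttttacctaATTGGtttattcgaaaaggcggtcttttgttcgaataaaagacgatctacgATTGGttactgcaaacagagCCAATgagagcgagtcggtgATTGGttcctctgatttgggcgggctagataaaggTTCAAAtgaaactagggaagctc
Mki67, chr7:135716380-135716629, minus strand: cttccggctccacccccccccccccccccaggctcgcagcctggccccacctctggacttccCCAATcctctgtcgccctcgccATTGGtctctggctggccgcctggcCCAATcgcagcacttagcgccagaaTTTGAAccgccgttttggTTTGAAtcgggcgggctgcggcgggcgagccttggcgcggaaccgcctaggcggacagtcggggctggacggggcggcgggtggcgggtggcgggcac
The Cdc6 promoter held 1 E2F match, on the minus strand, with its first base 138 bases before the RefSeq start. In GENCODE, Cdc6 starts earlier, at 98907801, so this whole window and its match lie inside the gene there. The GENCODE start of Rrm2, 24708241, also falls just before the end of its window. Top2a held 2 CHR and 6 CCAAT matches and Mki67 held 2 and 3, whereas Nusap1 held none of the 3 motifs. Rrm2 had a single CCAAT match and Mcm2 had 1 CHR and 1 CCAAT match. A match is a description of letters and does not show that a factor binds there, and the absence of a match says only that these letters are not in this window. CHR and CCAAT letters can share bases, but no marked matches did so in these 6 windows.

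Promoters were at hand for 16 of the 19 S phase genes and 17 of the 21 M phase genes. The counts here used the full promoter sequences, which run past the start into the gene, unlike the windows printed above. Where a gene had several promoters, a match in any of them was counted. A CHR was present in 12 of the 17 M phase promoters (70.6%) and in 3 of the 16 S phase promoters (18.8%), beside 20.2% of the promoters of all 27025 genes in the same table. A CCAAT box was found in 15 M phase promoters (88.2%), 10 S phase promoters (62.5%) and 41.1% of all. For E2F the order was the opposite: 7 S phase promoters (43.8%), 1 M phase promoter (5.88%, Cdk1) and 2.6% of all. The half-site of the glucocorticoid receptor, AGAACA, was found in 2 S phase promoters (12.5%, Rrm1 and Fen1), 3 M phase promoters (17.6%, Cdc20, Cenpe and Plk1) and 21.3% of all. The full palindrome (this half-site, 3 bases of any kind, then its reverse complement) was in none of the member promoters and in 0.0111% of all.

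Between 10760132 and 11827487 reads per library were counted on genes. Normalised counts below are counts scaled to the mean effective library size after TMM normalisation. LFC is the log2 fold change, given with its standard error (SE) and an adjusted p (edgeR quasi-likelihood test, Benjamini-Hochberg over 15938 genes), and a gene was called changed at an adjusted p under 0.05. The labels fitted the zinc gene Mt1 (lowest ZnSO4 library 11971 normalised counts, highest water library 1376) and the Dex gene Fkbp5 (lowest Dex library 10263, highest PBS library 1222). Markers of ileal enterocytes, Paneth cells, goblet cells, muscle, T cells and B cells were all counted. B cell markers differed most between libraries of the same group, and the values are given beside the results they touch.

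All 40 members were detected in the ileum, at 2.78 to 3274 normalised counts. Per kilobase of exon, Ccnb2 (a B-type cyclin) led in water + PBS with 397 normalised counts, followed by Pcna (the sliding clamp of DNA polymerases) with 385, Ccna2 with 283 and Top2a with 279. Cdc6 and Gins2 were among the lowest, at 23.6 and 23.5 per kilobase, and Fen1 (the flap endonuclease) was the lowest at 4.16. The water + PBS libraries overlapped between all neighbours in this order except Pcna and Ccna2, Mki67 and Mcm4, Cenpf and Chek1, and Gins2 and Fen1. Of the exon bases of Fen1, 84.2% lie under genes of the opposite strand (Tmem258 and Gm10143), and of Gins2 67.3% lie under Gse1. The strand setting of the counting is not given in the sources used here, and without strand such reads cannot be told apart. Tmem258 had 496 to 689 reads and Fen1 3 to 13, so the values of Fen1 and Gins2 are uncertain. Kif20a (29.3%), Ube2c (22.8%), Ccne2 (17.4%), Ccna2 (12.5%) and Prc1 (11.1%) also overlap genes of the opposite strand, and between 23.3% and 27.8% of the 31-base stretches of Ccnb1, Cdc20, Mcm7, Uhrf1 and Pcna recur in genes elsewhere, pseudogenes for the most part.

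**Figure D1:**
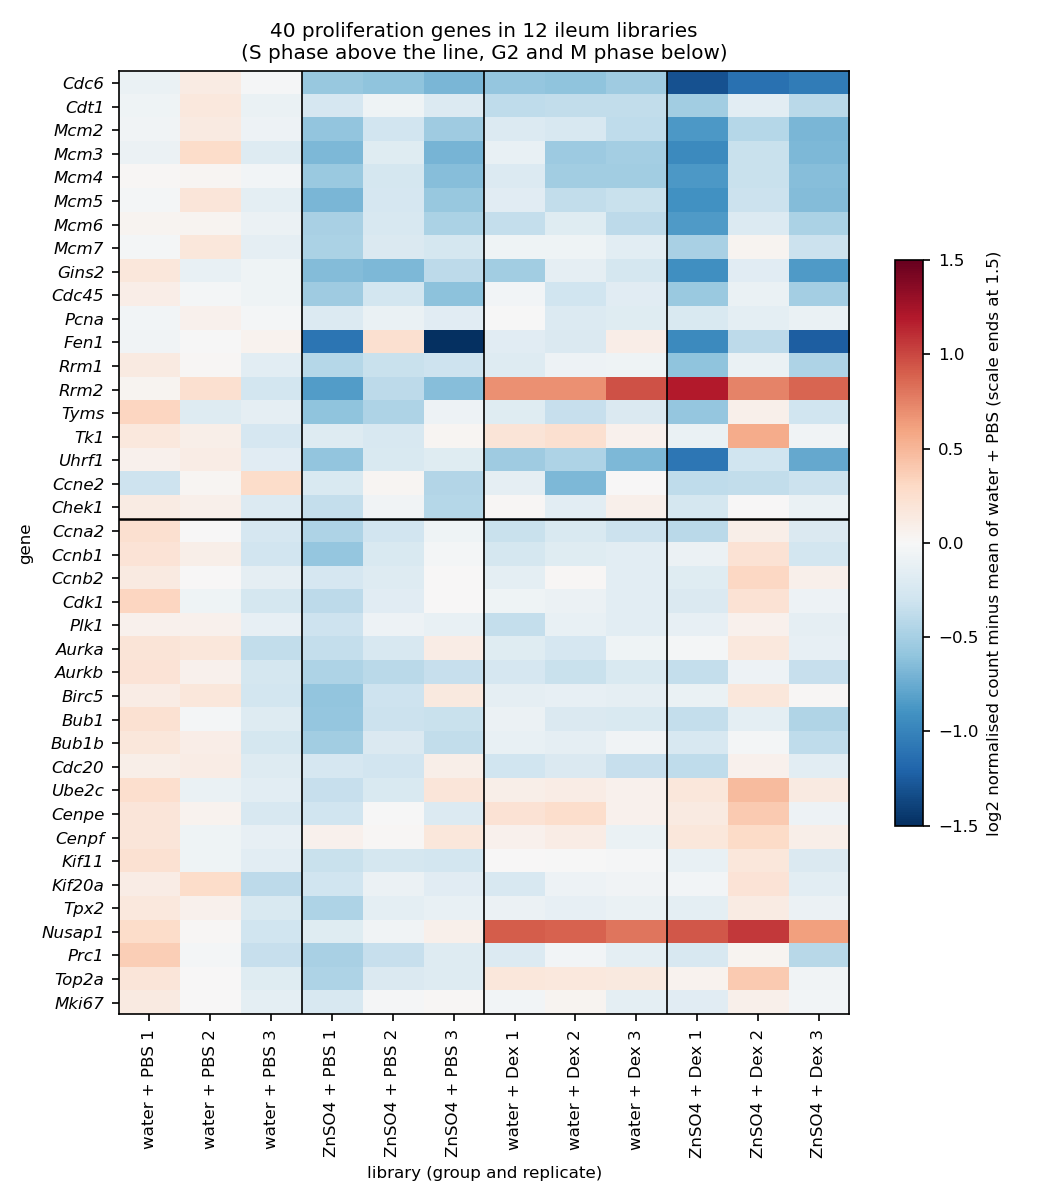
Heatmap of the 40 members (rows, S phase above the line and G2 and M phase below) in the 12 libraries (columns). Colour is the log2 normalised count minus the mean of the 3 water + PBS libraries; Cdc6 is low in all ZnSO4 and all Dex libraries, and Rrm2 and Nusap1 are high in all 6 Dex libraries.

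In mice given zinc alone, the S phase genes lay below those of water + PBS and 2 of them passed the test. Cdc6, the loader of the replicative helicase, fell by 34.9% and Mcm2, a subunit of that helicase, fell by 27.7%. No member was called higher, and none was higher at an unadjusted p under 0.05, where 17 of 40 were lower, beside 1640 of all 15938 genes (10.3%). At the adjusted threshold, among all genes, 2.54% were called lower and 2.11% higher, so 2 of 40 called lower is a share near the background of calls. The LFC was negative for 19 of 19 S phase genes, with a median of -0.40, and for 20 of 21 M phase genes, with a median of -0.21, beside a median of -0.01 over all genes tested. Without overlap between the groups, 12 S phase genes and 4 M phase genes were lower in all 3 ZnSO4 + PBS libraries than in any water + PBS library, where 12.9% of all genes were. In whole tissue, fewer cycling cells and less RNA per cell cannot be told apart. The count of 2 was 0 without water + PBS 2 or ZnSO4 + PBS 3, 1 without any of the water + Dex libraries, water + PBS 1, ZnSO4 + PBS 1 or ZnSO4 + Dex 3, 4 without water + PBS 3 and 8 without ZnSO4 + Dex 2, and DESeq2 called 5 lower.

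In mice given Dex alone, 2 members rose and 1 fell. Rrm2, the regulated subunit of ribonucleotide reductase, rose 1.70-fold, Nusap1, a microtubule-bundling protein of the spindle, rose 1.80-fold, and Cdc6 fell by 32.9%. Of all genes 5.41% were called higher and 4.51% lower, so these counts too were near the background. The median LFC was -0.27 over the S phase genes and -0.12 over the M phase genes, beside -0.01 over all genes, and 17 of 19 and 16 of 21 were negative. Without overlap, 8 S phase genes and 1 M phase gene were lower, beside 14.5% of all genes. This comparison shares its water + PBS libraries with the one for zinc alone. The count of 3 fell to 2 without water + Dex 3, where Rrm2 was no longer called (adjusted p = 0.0577). It was 4 without water + PBS 3 and 5 without ZnSO4 + Dex 1 or ZnSO4 + Dex 2.

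With zinc and Dex together, 10 of the 19 S phase genes were called lower than in water + PBS and none of the 21 M phase genes, in edgeR and in DESeq2. At an unadjusted p under 0.05, 2 of the 21 were lower, beside 18.3% of all genes. The 10 were Cdc6, Cdt1, Mcm2, Mcm3, Mcm4, Mcm5, Mcm6, Gins2, Rrm1 and Uhrf1. Rrm2 and Nusap1 were again the members called higher. The background was 11.9% lower and 11.5% higher, beside which 10 of 19 stood well above and 0 of 21 below. The median LFC was -0.38 over S phase, -0.04 over M phase and -0.01 over all genes. Lower without overlap were 13 S phase genes and no M phase gene, beside 18.9% of all genes. The count of S phase genes called lower fell from 10 to 3 without ZnSO4 + Dex 1, to 4 without water + PBS 2, and to 5 without water + PBS 1 or ZnSO4 + Dex 3, and it was 12 without ZnSO4 + Dex 2. It was 6 with the B cell marker level as a covariate and 2 without the library highest in B cell markers in each group, with the marker levels given further on.

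**Figure D2:**
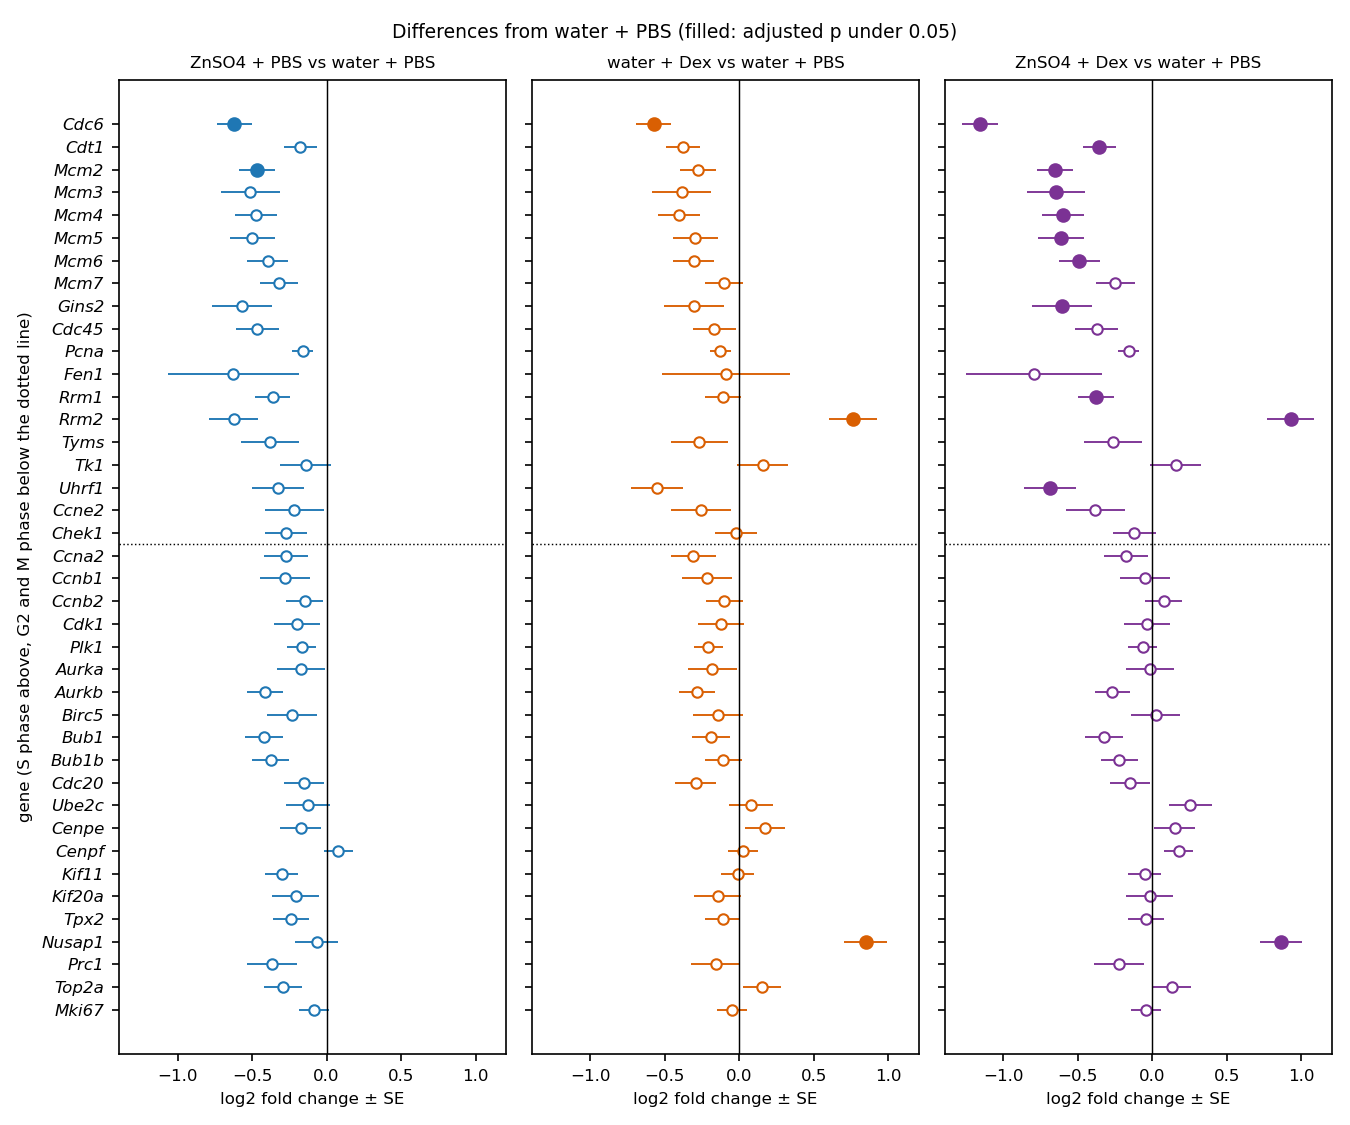
LFC ± SE (x axis) of each member (y axis) in ZnSO4 + PBS, water + Dex and ZnSO4 + Dex, each against the same 3 water + PBS libraries, with filled points at an adjusted p under 0.05. The S phase genes above the dotted line lie left of 0 in most cases, 10 of them filled on that side in the right panel, where Rrm2 is filled on the right, while Rrm2 and Nusap1 lie at 0.76 and 0.85 in water + Dex.

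The remaining pairs of groups gave few calls. In ZnSO4 + Dex against water + Dex, Cdc6 was the 1 member called lower and none was higher. Of all genes, 2.54% were called lower and 1.83% higher. The count was 0 without ZnSO4 + Dex 1 or any 1 of the water + Dex libraries. It was also 0 in DESeq2 and in the fit of only the 2 groups compared, and 3 without ZnSO4 + Dex 2. In ZnSO4 + Dex against ZnSO4 + PBS, Rrm2, Nusap1 and Top2a were higher and Cdc6 lower, where 6.65% of all genes were higher and 7.08% lower. Averaged over PBS and Dex, ZnSO4 lowered 5 members, all of S phase (Cdc6, Mcm2, Mcm4, Mcm5 and Rrm1), and raised none (6.52% and 6.24% of all genes). Averaged over water and ZnSO4, Dex raised Rrm2, Nusap1 and Top2a and lowered Cdc6, Uhrf1 and Cdt1 (10.4% and 11.2% of all genes). The 5 lower with ZnSO4 were 12 members without ZnSO4 + Dex 2, 8 without ZnSO4 + PBS 2, 7 without water + PBS 3, and 2 or 3 without any 1 of the others.

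The contrast between S and M phase can also be given library by library. These values come from the same counts of the same genes, so they are not separate evidence. The mean log2 level of the S phase genes minus that of the M phase genes was -1.05, -0.84 and -0.74 in water + PBS, -1.02, -0.93 and -1.27 in ZnSO4 + PBS, -0.97, -1.09 and -0.99 in water + Dex, and -1.38, -1.24 and -1.22 in ZnSO4 + Dex. The ZnSO4 + Dex libraries were below all water + PBS and all water + Dex libraries and overlapped with ZnSO4 + PBS. The order of the mice within a group was shared by many members in 3 of the 4 groups. In water + PBS, replicate 1 was the highest for 18 of 21 M phase genes and replicate 3 the lowest for 21 of 21. In ZnSO4 + Dex, replicate 2 was the highest for 21 of 21 M phase and 15 of 19 S phase genes, and replicate 1 the lowest for 17 of 19 S phase genes. In ZnSO4 + PBS, replicate 1 was the lowest for 19 of 21 M phase genes and replicate 2 the highest for 13 of 19 S phase genes. In water + Dex no replicate was the highest for more than 8 of 19 S phase or 10 of 21 M phase genes.

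Among the licensing factors, Cdc6 was the member with the most regular change. Its normalised counts were 115, 134 and 122 in water + PBS, 83.0, 81.5 and 76.9 in ZnSO4 + PBS, 82.5, 81.0 and 85.4 in water + Dex and 49.8, 56.7 and 59.8 in ZnSO4 + Dex. The groups ZnSO4 + PBS and water + Dex lay at like levels below water + PBS, and ZnSO4 + Dex lay below both, with no overlap. The values against water + PBS were LFC -0.62 ± 0.12 (adjusted p = 0.0142) with ZnSO4, -0.57 ± 0.12 (adjusted p = 0.00877) with Dex and -1.16 ± 0.12 (adjusted p = 5.35e-05) with both. Cdc6 was also called lower with zinc in mice given Dex (LFC -0.58, SE 0.12, adjusted p = 0.0206). That call was absent in DESeq2, in the fit of only those 2 groups and with all genes of at least 1 count. In mice given zinc, Cdc6 was called lower with Dex (LFC -0.54, SE 0.12, adjusted p = 0.0118). The interaction of both was 0.04 on the log2 scale (SE 0.17). The call for ZnSO4 alone was lost without water + PBS 2 (adjusted p = 0.0535) or ZnSO4 + PBS 3 (adjusted p = 0.0598), and that for ZnSO4 under Dex without any 1 of the water + Dex libraries or ZnSO4 + Dex 1 (adjusted p = 0.0633 to 0.0766), whereas the call for both treatments held in 12 of 12 such fits.

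Cdt1, the partner of Cdc6 in licensing, had normalised counts of 276, 323 and 269 in water + PBS, 242, 275 and 250.1 in ZnSO4 + PBS, 221, 222 and 224 in water + Dex and 201, 259 and 218 in ZnSO4 + Dex. It was called lower in ZnSO4 + Dex (LFC -0.35, SE 0.11, adjusted p = 0.0407) and with Dex on average (LFC -0.28, SE 0.08, adjusted p = 0.0269), calls that held in 4 and 7 of the 12 fits with 1 library removed.

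The Mcm genes encode the 6 subunits of the helicase ring. Mcm2 stood at 548, 627 and 539 in water + PBS, 378, 467 and 395 in ZnSO4 + PBS, 493, 482 and 438 in water + Dex and 313, 423 and 356 in ZnSO4 + Dex, lower in every ZnSO4 library than in the libraries on water with the same injection. It was called lower in ZnSO4 + PBS (LFC -0.47, SE 0.12, adjusted p = 0.0491), in ZnSO4 + Dex against water + PBS (LFC -0.65, SE 0.12, adjusted p = 0.00247) and with ZnSO4 on average (LFC -0.42, SE 0.08, adjusted p = 0.0081), but not in water + Dex (LFC -0.28, SE 0.12, adjusted p = 0.188). The first of these calls held in 3 of the 12 fits without 1 library (adjusted p up to 0.166), the others in 12 of 12. Mcm3, Mcm4, Mcm5 and Mcm6 were likewise called lower in ZnSO4 + Dex against water + PBS, with LFCs between -0.64 and -0.49, and Mcm7 was not (LFC -0.25, SE 0.13, adjusted p = 0.192).

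Mcm4 counts were 671, 674 and 643 in water + PBS, 451, 553 and 426 in ZnSO4 + PBS, 576, 463 and 460.3 in water + Dex and 365, 526 and 425 in ZnSO4 + Dex, and its water + PBS libraries stood above all 9 others (both treatments: LFC -0.60, SE 0.14, adjusted p = 0.0105). For Mcm5 the counts were 644, 748 and 597 in water + PBS, 410.1, 553 and 445 in ZnSO4 + PBS, 588, 511 and 522 in water + Dex and 350.5, 529 and 421 in ZnSO4 + Dex (both treatments: LFC -0.61, SE 0.15, adjusted p = 0.0145). Mcm6, the most abundant of the 6, was at 1225, 1221 and 1119 in water + PBS, 849, 1006 and 853 in ZnSO4 + PBS, 926, 1051 and 906 in water + Dex and 658, 1027 and 854 in ZnSO4 + Dex (both treatments: LFC -0.49, SE 0.14, adjusted p = 0.0242). In ZnSO4 + Dex these 3 genes shared the order of the mice, replicate 1 lowest and replicate 2 highest. The values for Mcm3 were 531, 687 and 496 in water + PBS, 355, 498 and 349 in ZnSO4 + PBS, 524, 388 and 399 in water + Dex and 292, 449 and 355 in ZnSO4 + Dex, with the widest spread of the 6 and a call for both treatments (LFC -0.64, SE 0.20, adjusted p = 0.0348) that was lost without water + PBS 1, water + PBS 2, ZnSO4 + Dex 1 or ZnSO4 + Dex 3 (adjusted p up to 0.128). Mcm6 lost its call without the same 4 libraries (up to 0.0655) and Mcm5 without water + PBS 2 or ZnSO4 + Dex 1 (up to 0.0568). With ZnSO4 on average, Mcm5 (LFC -0.41 ± 0.11, adjusted p = 0.0313) and Mcm4 (LFC -0.33 ± 0.10, adjusted p = 0.0498) were called in 3 and 2 of the 12 fits.

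Gins2 and Cdc45 complete the active helicase. Gins2 counts were 108, 89.3 and 92.2 in water + PBS, 61.3, 60.4 and 73.2 in ZnSO4 + PBS, 66.9, 87.5 and 80.0 in water + Dex and 50.8, 85.5 and 53.4 in ZnSO4 + Dex, and its call in ZnSO4 + Dex (LFC -0.61, SE 0.20, adjusted p = 0.0495) held in 1 of 12 fits without a library. Cdc45 counts were 198, 182 and 177 in water + PBS, 128, 154 and 121 in ZnSO4 + PBS, 181, 150.1 and 164 in water + Dex and 126, 173 and 130.3 in ZnSO4 + Dex, with no call in any comparison (LFC -0.37, SE 0.14, adjusted p = 0.0867 for both treatments).

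The enzymes of nucleotide supply did not move together. Rrm2 was at 436, 502 and 349.7 in water + PBS, 238, 324 and 273 in ZnSO4 + PBS, 680.1, 685 and 821 in water + Dex and 965, 710.0 and 775 in ZnSO4 + Dex. Its Dex libraries were above all PBS libraries, and its ZnSO4 + PBS libraries were below those of water + PBS. Dex raised Rrm2 1.70-fold in mice on water (LFC 0.76, SE 0.16, adjusted p = 0.00996) and 2.93-fold in mice on ZnSO4 (LFC 1.55, SE 0.16, adjusted p = 8.19e-05). Against water + PBS, Rrm2 in ZnSO4 + Dex was 1.90-fold higher (LFC 0.93, SE 0.16, adjusted p = 0.00156). ZnSO4 alone gave an LFC of -0.62 ± 0.16, which missed the threshold (adjusted p = 0.0524) in edgeR and was called by DESeq2, and ZnSO4 under Dex gave 0.16 ± 0.16 (adjusted p = 0.623). The rise with Dex on water was lost at the threshold without water + Dex 3 (adjusted p = 0.0577).

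Rrm1, the large subunit of the same enzyme, stood at 1188, 1097 and 965 in water + PBS, 803, 858 and 867 in ZnSO4 + PBS, 948, 1026 and 1036 in water + Dex and 709, 1009.7 and 782 in ZnSO4 + Dex. It was called lower in ZnSO4 + Dex against water + PBS (LFC -0.38, SE 0.12, adjusted p = 0.041), where the groups overlapped, and with ZnSO4 on average (LFC -0.31, SE 0.08, adjusted p = 0.0322). The calls held in 3 and 4 of 12 fits without a library. In water + Dex the LFC of Rrm1 was -0.11, beside 0.76 for Rrm2. Tyms (thymidylate synthase) was at 397, 277 and 288 in water + PBS, 208, 229.7 and 301 in ZnSO4 + PBS, 279, 248 and 271 in water + Dex and 212, 333 and 256 in ZnSO4 + Dex and was not called with ZnSO4 (LFC -0.38, SE 0.19, adjusted p = 0.304) or Dex (LFC -0.27, SE 0.19, adjusted p = 0.455). Tk1 (thymidine kinase) was not called either and ranged from 291 to 511.

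Pcna varied least of the members over the 12 libraries, with 898, 968 and 909 in water + PBS, 799.5, 864 and 819.7 in ZnSO4 + PBS, 922, 800.3 and 818 in water + Dex and 790.1, 834 and 864 in ZnSO4 + Dex. It was not called with ZnSO4 (LFC -0.16, SE 0.07, adjusted p = 0.245) or Dex (LFC -0.13, SE 0.07, adjusted p = 0.336), although its ZnSO4 + PBS libraries were all below those of water + PBS. Fen1, which cuts the flaps of Okazaki fragments, had only 2.78 to 11.9 normalised counts, with the groups overlapping in every pair but ZnSO4 + Dex, which lay below both water groups. Its LFC was the largest in size of the S phase members in ZnSO4 + PBS (LFC -0.63 ± 0.44, adjusted p = 0.478) and of all members in ZnSO4 + Dex against water + Dex (LFC -0.70 ± 0.47, adjusted p = 0.46), with an SE too wide for a call.

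Uhrf1, which guides the copying of DNA methylation at replication forks, was at 598, 617 and 508 in water + PBS, 381, 489 and 503 in ZnSO4 + PBS, 397, 417 and 359 in water + Dex and 271, 464 and 335 in ZnSO4 + Dex. The values of all 9 treated mice were below the lowest water + PBS library. It was called lower with Dex on average (LFC -0.46, SE 0.12, adjusted p = 0.0207) and with both treatments (LFC -0.69, SE 0.18, adjusted p = 0.0153), the second call being lost without ZnSO4 + Dex 1 (adjusted p = 0.0534). Dex alone gave LFC -0.56, SE 0.17, adjusted p = 0.0712. Ccne2, a cyclin of S phase entry, was at 100.2, 127 and 151 in water + PBS, 107, 127 and 91.7 in ZnSO4 + PBS, 114, 77.8 and 125 in water + Dex and 95.4, 96.1 and 99.3 in ZnSO4 + Dex and was called nowhere (LFC -0.22 ± 0.20 with ZnSO4, adjusted p = 0.594; LFC -0.26 ± 0.20 with Dex, adjusted p = 0.493). Chek1, the checkpoint kinase of stalled forks, ranged from 86.1 to 125 without a call.

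**Figure D3:**
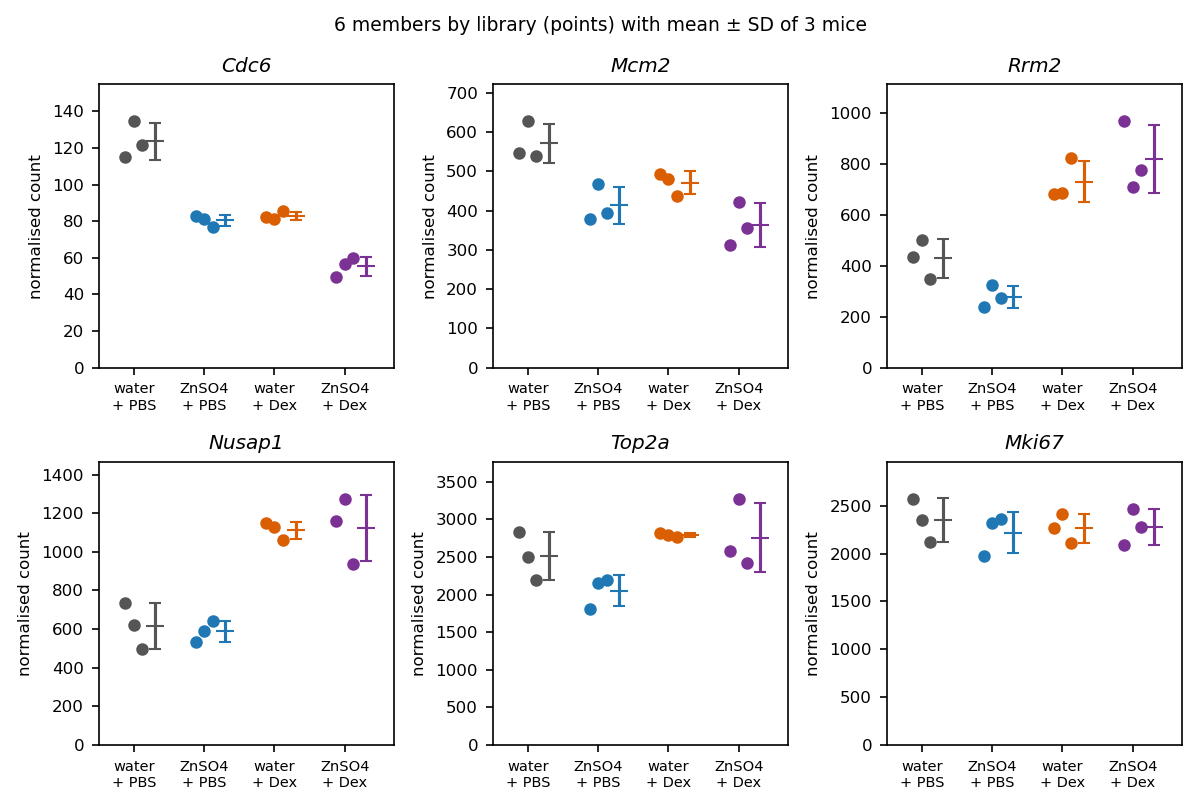
Normalised counts (y axis, from 0) of 6 members in each library (points) of the 4 groups (x axis), with mean ± SD of 3 mice beside them. Cdc6 falls from 124 ± 9.98 in water + PBS to 55.4 ± 5.14 in ZnSO4 + Dex, Rrm2 and Nusap1 are higher in every Dex library than in any PBS library, and Mki67 overlaps between all groups.

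The M phase genes were more even. Of the 21, Nusap1 and Top2a alone were called in a comparison of 2 groups over all libraries, both higher with Dex. When water + PBS 3 was left out, Aurkb was also called lower against water + PBS with ZnSO4, with Dex and with both, Bub1b lower with ZnSO4 alone, and Aurkb, Bub1 and Bub1b lower with ZnSO4 on average. Without ZnSO4 + Dex 2, Bub1 was called lower with ZnSO4 on average, and without ZnSO4 + PBS 3, Ube2c was called higher in ZnSO4 + Dex than in ZnSO4 + PBS and with Dex on average. Nusap1 was at 736, 619 and 496 in water + PBS, 536, 588 and 644 in ZnSO4 + PBS, 1147, 1126 and 1060.0 in water + Dex and 1160.2, 1275 and 937 in ZnSO4 + Dex, so that every Dex library exceeded every PBS library. The rise was 1.80-fold on water (LFC 0.85, SE 0.14, adjusted p = 0.00274) and 1.91-fold on ZnSO4 (LFC 0.93, SE 0.14, adjusted p = 0.00108), and both calls held in 12 of 12 fits without a library. ZnSO4 left it at LFC -0.07 ± 0.14 with PBS (adjusted p = 0.838) and 0.02 ± 0.14 with Dex (adjusted p = 0.967). No other spindle or kinetochore protein among Tpx2, Prc1, Kif11, Kif20a, Cenpe and Cenpf was called over all libraries, though Cenpe was called higher with Dex on average without ZnSO4 + Dex 3 or with a replicate block. These 6 had LFCs between -0.16 and 0.17 with Dex on water.

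Top2a, the topoisomerase that untangles chromosomes, was at 2838, 2502 and 2199.7 in water + PBS, 1814, 2152 and 2192 in ZnSO4 + PBS, 2815, 2789 and 2768 in water + Dex and 2583, 3274 and 2414 in ZnSO4 + Dex. It was higher in ZnSO4 + Dex than in ZnSO4 + PBS (LFC 0.43, SE 0.13, adjusted p = 0.0444), without overlap, and with Dex on average (LFC 0.29, SE 0.09, adjusted p = 0.0379). These calls held in 3 and 4 of 12 fits without a library. On water the Dex difference was LFC 0.15, SE 0.13, adjusted p = 0.526, and ZnSO4 alone gave LFC -0.29, SE 0.13, adjusted p = 0.223. Mki67, the usual marker of cycling cells, stood at 2573, 2353 and 2116 in water + PBS, 1974, 2316 and 2363 in ZnSO4 + PBS, 2265, 2417 and 2115 in water + Dex and 2086, 2468 and 2280.1 in ZnSO4 + Dex. All 4 groups overlapped, with LFC -0.08, SE 0.10, adjusted p = 0.701 for ZnSO4 and LFC -0.05, SE 0.10, adjusted p = 0.816 for Dex.

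The cyclins and kinases of mitosis gave no call in edgeR over all libraries. With ZnSO4 alone, 5 of the 21 M phase genes were lower at an unadjusted p under 0.05, beside 10.3% of all genes. With Dex alone, 1 of the 21 was lower, beside 11.7% of all genes. Cdk1 was at 875, 668 and 582 in water + PBS, 529.9, 619 and 702 in ZnSO4 + PBS, 669, 657 and 626 in water + Dex and 600.3, 812 and 661 in ZnSO4 + Dex, with LFC -0.20, SE 0.16, adjusted p = 0.528 for ZnSO4 and LFC -0.12, SE 0.16, adjusted p = 0.7 for Dex. Ccnb1, its cyclin, was at 392, 363 and 279 in water + PBS, 228, 291 and 334 in ZnSO4 + PBS, 285, 300.2 and 305 in water + Dex and 321, 396 and 282 in ZnSO4 + Dex (LFC -0.28, SE 0.17, adjusted p = 0.397 for ZnSO4, LFC -0.22, SE 0.17, adjusted p = 0.493 for Dex). In both genes the lowest water + PBS library lay within the range of ZnSO4 + PBS. Plk1 (Polo kinase) was at 539.9, 539.8 and 477 in water + PBS, 418, 491 and 479 in ZnSO4 + PBS, 404, 478 and 465 in water + Dex and 476, 539.9 and 472 in ZnSO4 + Dex (LFC -0.17, SE 0.10, adjusted p = 0.383 for ZnSO4, LFC -0.21, SE 0.10, adjusted p = 0.23 for Dex). Aurkb, the kinase of the chromosomal passenger complex, and Bub1, of the spindle checkpoint, came nearest to a call for ZnSO4 alone (LFC -0.41, SE 0.12, adjusted p = 0.0765 and LFC -0.42, SE 0.13, adjusted p = 0.089). Bub1 gave the largest LFC in size among the M phase genes there, and Cenpf, a kinetochore protein, was the 1 member of 40 with a positive LFC (0.08).

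No member had an interaction of ZnSO4 and Dex at an adjusted p under 0.05 (lowest 0.952), and 0% of all genes were called higher and 0% lower, in edgeR and in DESeq2 alike. At an unadjusted p under 0.05, 3 of 40 members and 794 of all 15938 genes were counted. The 3 were Rrm2 (0.79, SE 0.23), Aurkb (0.43, SE 0.17) and Plk1 (0.31, SE 0.14), named after their values were seen. The interaction was positive for 39 of 40 members, with a median of 0.26 beside 0.01 over all genes. Without ZnSO4 + Dex 2, which was the highest of its group for all M phase genes, that median was 0.13.

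Other genes of the cell cycle were taken from 2 further lists, 52 of replication and S phase and 66 of G2 and M phase, all tested. In ZnSO4 + Dex against water + PBS, 14 of the 52 S phase genes were called lower and 1 higher, beside 1 lower and 2 higher of the 66 M phase genes and a background of 11.9% lower and 11.5% higher. E2f2, an E2F factor, had the lowest p (LFC -1.61, SE 0.15, adjusted p = 2.23e-05), followed by Ccne1, the cyclin of S phase entry (LFC -1.09, SE 0.18, adjusted p = 0.00136), Hells, a chromatin remodeller (LFC -0.68, SE 0.16, adjusted p = 0.0104), Dut, which removes dUTP (LFC -0.53, SE 0.14, adjusted p = 0.019), and Pold3, a polymerase subunit (LFC -0.36, SE 0.10, adjusted p = 0.0196). Orc1, the largest subunit of the origin recognition complex, was the 1 that was higher (LFC 0.62, SE 0.17, adjusted p = 0.0226). Of the M phase list, Kif4 (LFC 0.51, SE 0.14, adjusted p = 0.0239), a kinesin of chromosome arms, and Iqgap3 (LFC 0.59, SE 0.18, adjusted p = 0.0301) were higher and Mybl2, a transcription factor of cell cycle genes, was lower (LFC -0.76, SE 0.22, adjusted p = 0.0275).

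With ZnSO4 alone, no gene of either list was called. At an unadjusted p under 0.05, 18 of the 52 and 9 of the 66 were lower, beside 10.3% of all genes. With Dex alone, E2f2 (LFC -1.30, SE 0.15, adjusted p = 0.000162) was called lower in the S phase list, and Cks2, a small Cdk subunit, Pttg1 (securin) and Ckap2 in the M phase list (LFC -0.59 ± 0.14, -0.50 ± 0.12 and -0.40 ± 0.11), where 4.51% of all genes were. With ZnSO4 on average, 6 of 52 and 1 of 66 were lower, where 6.52% of all genes were. With Dex on average, 8 of 52 were lower and 2 higher, among them Orc1 (LFC 0.76, SE 0.12, adjusted p = 0.000951), and 2 of 66 were lower and 2 higher. Of all genes, 11.2% were lower and 10.4% higher. The 8 of 52 were somewhat above that share, and the other counts with Dex on average were below theirs. With ZnSO4 on average, the 6 of 52 were above their share of 6.52% and the 1 of 66 was below it.

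Markers of other cell types differed between libraries and groups as well. The 12 B cell markers all had a negative LFC in ZnSO4 + Dex against water + PBS (median -3.18), though none was called in edgeR (1 was lower at an unadjusted p under 0.05, beside 18.3% of all genes). Their summed normalised counts ran from 460 to 9460 in water + PBS, 194 to 7058 in ZnSO4 + PBS, 254 to 3569 in water + Dex and 215 to 1082 in ZnSO4 + Dex. Every defining marker was counted in all libraries except Cr2 (0 in ZnSO4 + Dex 2) and Fcer2a (0 in water + Dex 3). All 10 T cell markers had a negative LFC and 8 were called lower, with sums from 1108 to 2238 in water + PBS and 579 to 610 in ZnSO4 + Dex. Of the 12 germinal centre markers, 9 had a negative LFC, 1 was called lower and 2 higher. The 12 crypt stem cell markers gave 2 calls in each direction, with sums from 13906 to 18039 in water + PBS and 19257 to 20531 in ZnSO4 + Dex. Of the 10 plasma cell markers 6 were called lower in the same comparison and all had a negative LFC, with a mean log2 level of 9.93 to 10.53 in water + PBS and 9.06 to 9.36 in ZnSO4 + Dex. Higher were 4 of the 8 goblet cell markers (13.20 to 13.34 against 13.65 to 13.92) and 5 of the 8 enteroendocrine markers (7.55 to 7.59 against 8.01 to 8.26). Of the 10 enterocyte and 10 Paneth cell markers none was called in edgeR, with 2 and 0 at an unadjusted p under 0.05, beside 5734 of all 15938 genes.

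**Figure D4:**
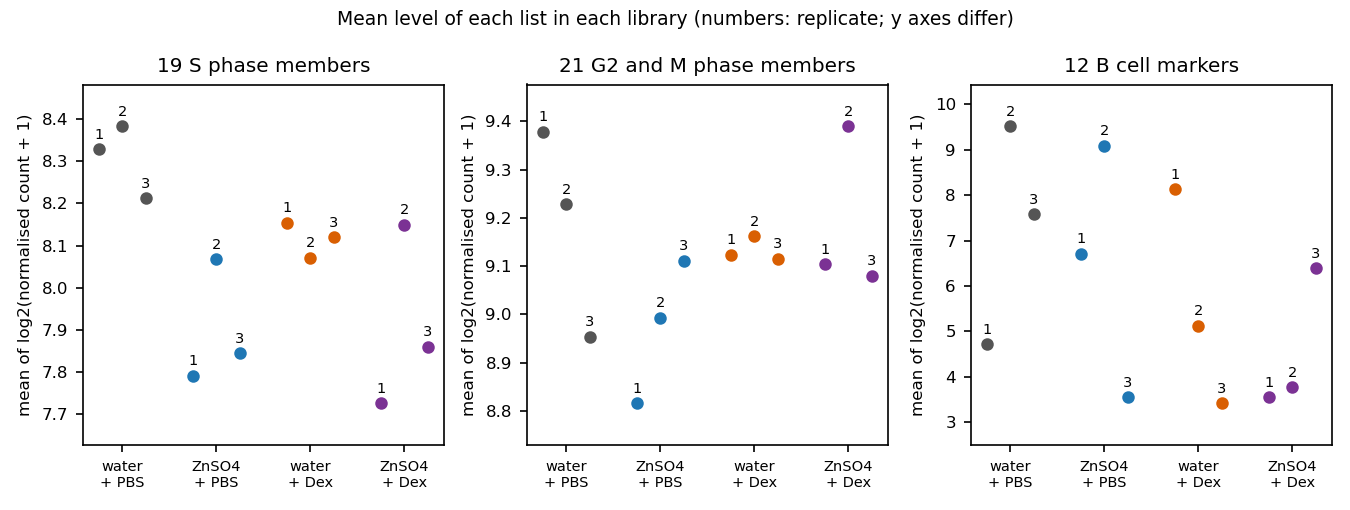
Mean log2(normalised count + 1) of the 19 S phase members, the 21 G2 and M phase members and the 12 B cell markers (panels, with different y axes) in each library, labelled by replicate. S phase levels in water + PBS (8.21 to 8.38) lie above all other libraries, and B cell markers span 4.72 to 9.52 within water + PBS alone.

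Within each group but ZnSO4 + Dex, the library with the most B cell marker RNA also had the highest S phase mean. In ZnSO4 + Dex, replicate 2 was highest for S phase with a B cell mean of 3.77, beside 6.39 in replicate 3. Replicate 2 had the lowest enterocyte marker level of the series (11.6, beside 12.3 to 13.5 in the other libraries). Its level of distal small intestine markers was also the lowest (11.1), followed by ZnSO4 + PBS 3 (11.4), beside 11.9 to 12.8 in the others. Smooth muscle markers were highest in the same libraries (11.2 and 11.3, beside 10.2 to 10.9 in the others). The 6 S phase genes called lower with both treatments beside the B cell covariate were Cdc6, Gins2, Mcm2, Mcm4, Rrm1 and Uhrf1. The 2 called without the library highest in B cell markers of each group were Cdc6 and Mcm2, with an LFC of -1.15 for Cdc6 and -0.56 for Mcm2. Rrm2 and Nusap1 were called higher with both treatments in each of these fits (LFC 0.94 and 0.77 with the covariate, 1.09 and 0.98 without the libraries). The part of T cells, plasma cells, goblet cells, enteroendocrine cells, enterocytes and muscle in these differences was not tested.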

How the data were processed

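Ileum libraries of 12 mice were prepared with a stranded kit and sequenced single-end. The authors mapped the reads to mm10 with HISAT2 2.0.4, counted them per gene with featureCounts and deposited raw counts. The annotation release and the strand setting are not given in the sources used here. Symbols and positions came from GENCODE (GRCm38, the mm10 assembly). The members and lists were chosen with earlier results of these data known.

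Genes were filtered with filterByExpr (minimum count 10), leaving 15938 genes with 99.8% of the counts, and were normalised by TMM. One model with 4 group means was fitted over all 12 libraries (edgeR 4.0.16 quasi-likelihood test, R 4.3.3, Benjamini-Hochberg adjustment over all genes), with a common biological coefficient of variation of 0.191. With 3 mice against 3, an exact permutation test cannot go below p = 0.1, so none is given. The p-values set a difference between groups against the spread between mice within groups, estimated over all 4 groups together. They do not cover anything shared by all mice of a group.

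Named in full were members called in a comparison, those with the largest LFC, and 10 reference members (Mki67, Top2a, Cdk1, Ccnb1, Plk1, Pcna, Mcm2, Rrm2, Tyms, Ccne2), and of the other lists up to 5 genes per direction by p. Libraries of a group differed by more than counting noise (chi-square per degree of freedom 8.30 to 45.3). Alternatives were RLE and upper-quartile factors, 2 other filters, DESeq2 1.42.0 (Wald test), a replicate block, B cell and germinal centre marker covariates, only the 2 groups compared, the study's LFC cut-off of 0.8, unadjusted p, and leaving out each library. Leaving out the library highest in B cell markers of each group was added after seeing the data. The procedure was tested on simulated data. Some genes of the marker and cell cycle lists are not reported here by name.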

Additional observations from a re-analysis of the deposited data

How the results depend on the processing

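Numbers of members called are given in the order ZnSO4 + PBS, water + Dex, ZnSO4 + Dex against water + PBS, ZnSO4 + Dex against water + Dex, ZnSO4 + Dex against ZnSO4 + PBS, ZnSO4 averaged and Dex averaged: 2, 3, 12, 1, 4, 5 and 6. RLE factors gave the same numbers. An LFC cut-off of 0.8 left 0, 1, 3, 0, 2, 0 and 2, and an unadjusted p under 0.05 gave 17, 9, 15, 3, 7, 13 and 10, with 3 for the interaction. Fitting only the 2 groups compared gave 0, 5, 7, 0 and 2 in the first 5. Without the library highest in B cell markers in each group, the numbers were 0, 2, 4, 0, 2, 1 and 3. Upper-quartile factors gave 1 for ZnSO4 + PBS and 2 for ZnSO4 averaged, and DESeq2 gave 5 for ZnSO4 + PBS and 0 for ZnSO4 + Dex against water + Dex. With all genes of at least 1 count, the latter was also 0. Fits of 2 groups or 8 libraries hold fewer mice, and for the other settings the cause was not tested.

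Leaving out 1 library at a time, the numbers ran from 0 to 8, 2 to 5, 5 to 14, 0 to 3, 3 to 4, 2 to 12 and 4 to 8, and the interaction stayed at 0. The median LFC of the members ran from -0.15 to 0.038 in ZnSO4 + Dex against water + Dex and from 0.13 to 0.33 for the interaction, the values -0.15 and 0.13 being those without ZnSO4 + Dex 2. The small differences of Mki67 with ZnSO4 alone (-0.15 to 0.0072) and Dex alone (-0.12 to 0.018), and of Cdk1 with Dex alone (-0.25 to 0.055), changed sign without water + PBS 1, which gave the upper values. Deviations of mice with the same replicate number had a median correlation of -0.06 (-0.36 to 0.46), beside 0.02 (-0.47 to 0.44) for other pairs. No pairing by replicate number was seen, though correlations that spread so widely cannot decide it. The fit with a replicate block gave 2, 4, 11, 1, 3, 5 and 7 members. Neither RLE nor upper-quartile factors moved the median LFC of all genes by more than 0.044. With 3 mice a group, differences of the size of the SE printed beside each LFC cannot be resolved.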
